A study of Homo sapiens with 9 samples.

Results

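Mitochondrial ribosomal proteins build the ribosome that works inside mitochondria. Their genes were taken as all protein-coding genes with a symbol made of MRPL or MRPS, a number and at most 1 further letter. This gave 78 of the 60617 genes in the count files, and all 78 were among the 18532 genes with enough counts to be tested. They were compared in RNA-seq libraries of PC-3 cells, an established human prostate cancer line. The 3 control libraries (Ctrl) came from cells given vehicle only, the 3 Dec libraries from cells given 1 µM decitabine, and the 3 Dec_Sam libraries from cells given 1 µM decitabine together with 200 µM S-adenosylmethionine (SAM), each for 5 days. Decitabine is a cytidine analogue that blocks DNA methyltransferases, and SAM is the methyl donor of those enzymes. The comparisons asked how decitabine changed these genes and whether the added SAM altered that change. Libraries of cells given only SAM were not used here, so an effect of SAM by itself cannot be told apart from its effect in the combination treatment.

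Mitochondrial DNA encodes a small set of respiratory chain proteins, and these are translated on a dedicated ribosome. Its 12S and 16S ribosomal RNAs are transcribed in the organelle, whereas all of its proteins are encoded in the nucleus, made in the cytosol and imported. The small subunit binds the messenger RNA and decodes it, and the large subunit forms peptide bonds and releases the chain at the inner membrane. Some of its proteins have counterparts in bacteria, and others were added during the evolution of mitochondria.

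By their place in the known structure, 51 of the proteins belong to the large subunit, of which 30 have bacterial homologues and 21 are specific to mitochondria. Another 26 belong to the small subunit, with 16 bacterial homologues and 10 mitochondria-specific proteins. MRPS18A and MRPS30 carry the symbol of the small subunit but sit in the large one and were counted there. MRPS36 is now known as a component of the 2-oxoglutarate dehydrogenase complex and was counted in neither subunit. By symbol alone, the division would be 49 to 29.

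The libraries held 21934307 to 22489684 estimated counts. Levels are given as CPM (counts scaled to a common library size) after TMM scaling, which divides each library by a factor that sets most genes level. The factors lay between 0.895 and 0.902 in the controls and between 1.033 and 1.078 in the treated libraries. The weakest of the 78 genes still had a mean of 244 counts per library. KRT8, KRT18 and KRT19, keratins of epithelial cells, were present in every library, and the prostate antigen gene KLK3 had no count, as known of PC-3 cells. Markers of other cells were low in the controls, with PTPRC (leukocytes) at 0.0497 to 0.1 CPM, CD14 (monocytes) at 0.149 to 0.2 CPM, COL1A1 (fibroblasts) at 2.48 to 3.8 CPM and PECAM1 (endothelium) at 9.78 to 10.3 CPM. These 4 of 5 markers were upregulated by both treatments, and the T cell gene CD3E stayed at or below 0.0844 CPM. The part of these changes in the results on the ribosomal genes was not tested. In bulk RNA, fewer cells and less RNA per cell cannot be told apart.

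Several promoters are shown first, because decitabine acts on the methylation of CpG sites and because the genes below moved in different directions. The first 3 belong to strongly downregulated genes, MRPL33 and MRPS21 were upregulated by decitabine, and MRPL41 and MRPL17 moved in opposite directions once SAM was added. The sequences are RefSeq promoters of assembly GRCh38.p14, cut so that they hold no annotated exon, and run 5′ to 3′ on the strand of the gene. Capitals mark matches to the core motif of NRF1 (GCATGCGC) or of the ETS factors (CCGGAAG), on either strand.
MRPL1 promoter, chr4:77862680-77862829 (+ strand): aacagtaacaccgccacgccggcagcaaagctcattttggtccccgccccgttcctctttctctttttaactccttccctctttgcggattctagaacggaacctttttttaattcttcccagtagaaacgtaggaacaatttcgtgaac
MRPL58 promoter, chr17:75012520-75012669 (+ strand): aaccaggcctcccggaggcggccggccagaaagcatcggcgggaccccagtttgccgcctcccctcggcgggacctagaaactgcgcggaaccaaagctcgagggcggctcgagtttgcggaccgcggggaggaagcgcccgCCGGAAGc
MRPL19 promoter, chr2:75646633-75646782 (+ strand): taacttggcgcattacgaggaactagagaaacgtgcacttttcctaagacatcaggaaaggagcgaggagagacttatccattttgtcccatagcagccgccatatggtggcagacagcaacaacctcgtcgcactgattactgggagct
MRPL33 promoter, chr2:27771569-27771716 (+ strand): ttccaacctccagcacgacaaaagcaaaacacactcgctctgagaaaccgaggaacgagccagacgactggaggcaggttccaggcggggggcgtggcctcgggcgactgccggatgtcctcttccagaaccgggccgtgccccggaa
MRPS21 promoter, chr1:150293711-150293860 (+ strand): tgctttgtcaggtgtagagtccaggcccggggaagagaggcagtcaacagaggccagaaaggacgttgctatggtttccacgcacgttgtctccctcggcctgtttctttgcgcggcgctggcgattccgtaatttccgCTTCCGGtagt
MRPL41 promoter, chr9:137551729-137551878 (+ strand): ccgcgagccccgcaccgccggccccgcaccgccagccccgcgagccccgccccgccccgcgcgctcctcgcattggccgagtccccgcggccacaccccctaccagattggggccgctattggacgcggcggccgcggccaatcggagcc
MRPL17 promoter, chr11:6683341-6683490 (- strand): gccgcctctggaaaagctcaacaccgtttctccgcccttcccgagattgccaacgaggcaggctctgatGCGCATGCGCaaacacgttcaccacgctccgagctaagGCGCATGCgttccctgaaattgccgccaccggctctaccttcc
The windows of MRPL1 and MRPL19 hold 9 and 7 CpG sites, and those of MRPL58 and MRPL41 hold 19 and 25. MRPL33, MRPS21 and MRPL17 have 13, 12 and 14. In MRPL17, the first run of capitals holds matches on both strands that overlap. The whole promoter of MRPL33, before it was cut, holds an ETS core that is not complete in the window printed here. DNA methylation of these windows was not analysed here.

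NRF1, the ETS factor GABP and YY1 are known regulators of nuclear genes for mitochondrial proteins. In the promoter table, 69 of the 78 genes were matched, and each promoter covers 300 bases. The ETS core was found in 30 of them (43.5%), against 14.8% of all 15344 protein-coding promoters. The YY1 core (AAGATGG) was found in 24 (34.8%) against 6.56%, and the NRF1 core in 6 (8.70%) against 4.38%. All motifs were searched on both strands, and matches may overlap. The ETS core was held by 24 of the 57 promoters of genes that decitabine downregulated (42.1%) and by 4 of the 9 whose genes were not called (44.4%). The median number of CpG sites was 24 in the 69 promoters and 23 in all promoters. A match is a stretch of letters and does not show that a factor binds there. MRPS36, MRPL2, MRPL10, MRPS28, MRPL35, MRPL15, MRPL23, MRPL13 and MRPL21 were not among the 69.

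In control cells, the level per kilobase of transcript was highest for MRPL24 at 203 CPM per kb, MRPL41 at 196 and MRPL12 at 195. It was lowest for MRPL42 at 7.28 CPM per kb, MRPS18C at 7.45 and MRPS14 at 7.52. The length of MRPL42 is that of its canonical transcript of 15557 bases, most of it outside the coding part. Without regard to length, MRPS16 took the most reads, with 438, 384 and 359 CPM in the controls.

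Decitabine lowered most of these genes. Of the 78, 66 were downregulated and 3 upregulated at an adjusted p below 0.05 in edgeR's quasi-likelihood test, and 9 (MRPL18, MRPL32, MRPL36, MRPL44, MRPS16, MRPS17, MRPS18C, MRPS25 and MRPS33) were not called. Among all genes tested, 32.5% were called lower and 36.3% higher (6030 and 6729 genes, or 3746 and 8849 without TMM factors). The median log2 fold change was -0.67 for the 78 genes and 0.035 for all genes tested. Well-expressed protein-coding genes, those at or above the weakest of the 78, had a median of -0.18, with 47.6% lower and 24.1% higher. Without TMM factors, 54 of the 78 genes were lower and 7 higher, and the median of each subunit was -0.42. Nothing in the labels says that the libraries came from separate cultures, so p-values measure the spread between these libraries, which may be technical.

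**Figure D1:**
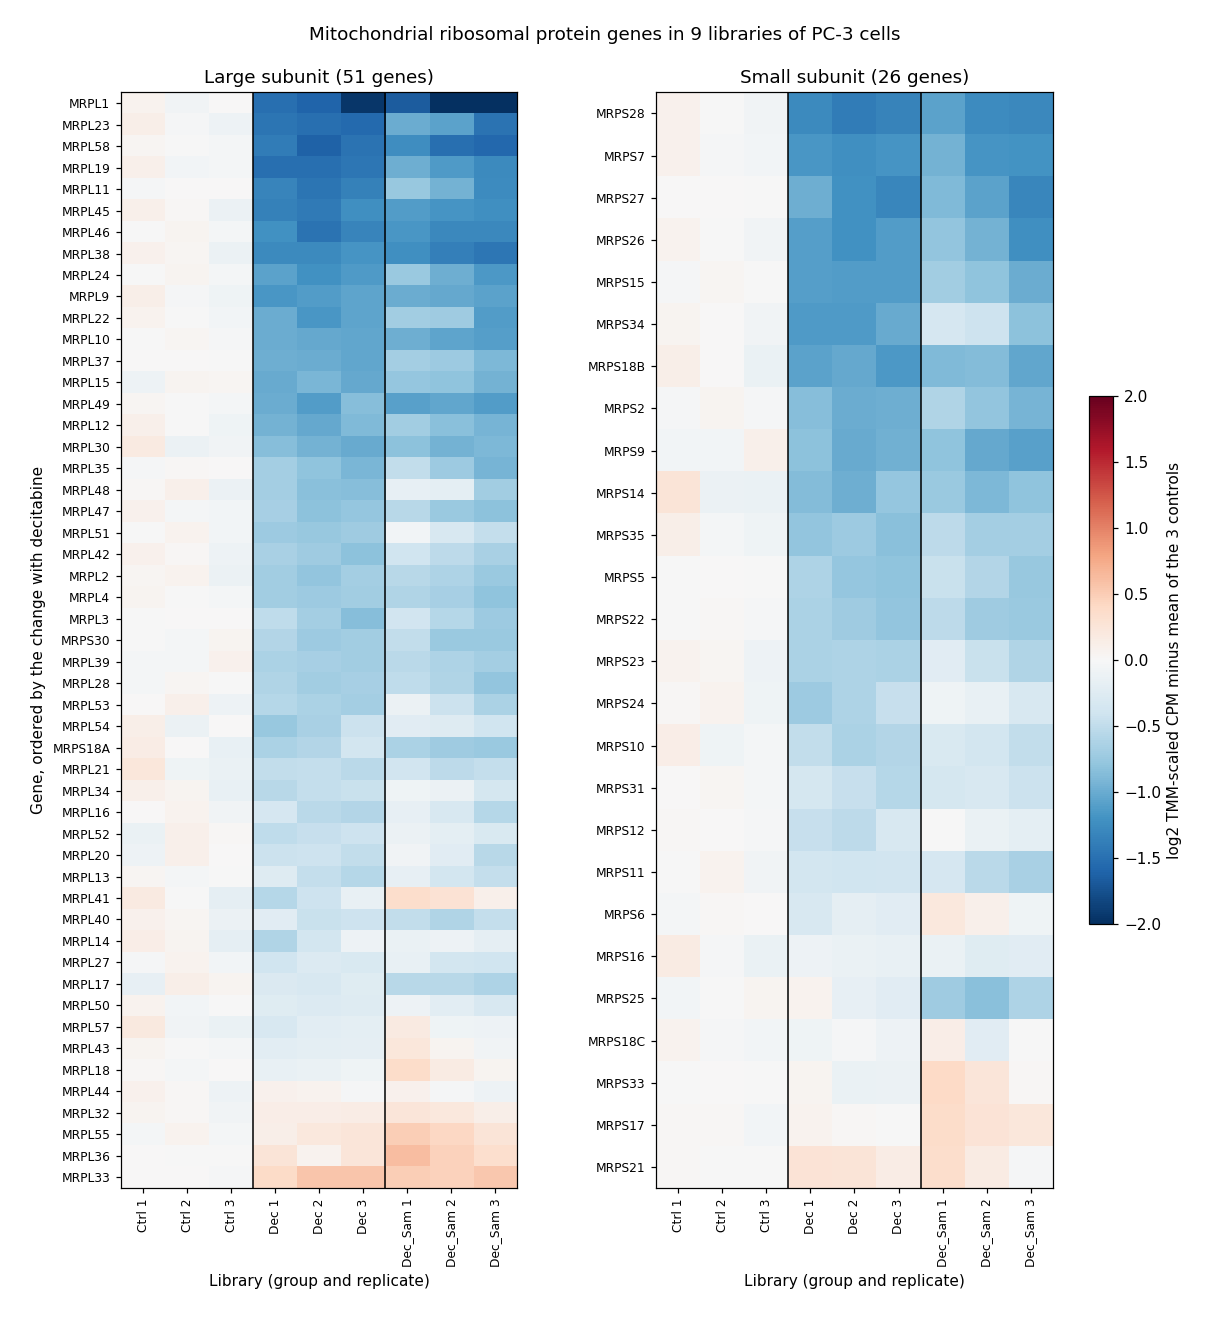
Level of each gene in each of the 9 libraries (columns), as log2 TMM-scaled CPM minus the mean of the 3 controls. The left panel shows the 51 large subunit genes and the right panel the 26 small subunit genes, ordered from the largest fall with decitabine, and vertical lines part the groups. Blue covers most of the 6 treated columns, and MRPL33 at the foot of the left panel is red in all of them.

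Both subunits had more genes lower than higher, and the difference between them was not tested. In the large subunit 45 genes (88.2%) were downregulated and 2 upregulated, with a median log2 fold change of -0.67. In the small subunit 20 (76.9%) were downregulated and 1 upregulated, also with a median of -0.67. Well-expressed protein-coding genes were lower in 47.6% of cases, and all genes tested in 32.5%. Among bacterial homologues the median was -0.69 in the large and -0.59 in the small subunit. The mitochondria-specific proteins had medians of -0.67 and -0.75, with 20 of 21 and 8 of 10 genes downregulated. MRPS36, of neither subunit, was at 26.8, 23.5 and 24.5 CPM in the controls and 18.2, 17.8 and 17.2 CPM with decitabine (-0.49 ± 0.10, adjusted p = 0.00065).

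The summed level of the large subunit was 4169 ± 129 CPM (SD, n = 3) in the controls and 2631 ± 35.2 CPM with decitabine. For the small subunit the sums were 2530 ± 96.4 and 1721 ± 40.7 CPM. As a share of all counts, without TMM scaling, the 78 genes made up 0.585% to 0.621% of the control libraries and 0.455% to 0.469% of the Dec libraries. The ratio of large to small subunit counts was 1.63, 1.66 and 1.65 in the controls, 1.5, 1.52 and 1.56 with decitabine and 1.58, 1.59 and 1.57 with the combination treatment, so the 3 groups did not overlap. MRPS16 weighs on this ratio, since it holds the most counts of the small subunit and was not called lower with decitabine. Without MRPS16, a choice made after seeing the data, the ratio was 1.95, 1.96 and 1.94 in the controls, 1.90, 1.93 and 1.97 with decitabine and 1.92, 1.95 and 1.95 with the combination treatment, and all groups overlapped.

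**Figure D2:**
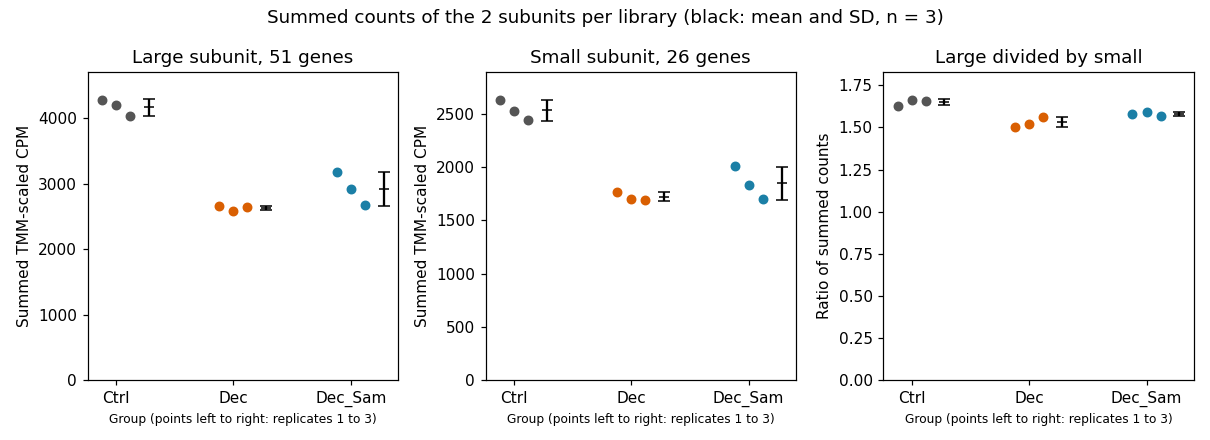
Summed TMM-scaled CPM of the large subunit genes, of the small subunit genes, and the ratio of their counts, for each library. Points are replicates 1 to 3 from left to right, and black marks are the mean and SD (n = 3). All treated libraries lie below the controls in the first 2 panels, and Dec_Sam 3 lies nearest to the Dec libraries.

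The proteins around the exit of the nascent chain were all lower. The 6 genes MRPL17, MRPL22, MRPL23, MRPL24, MRPL45 and MRPL47 had a median log2 fold change of -1.10. Of all 78 genes 84.6% were lower, and of well-expressed genes 47.6%. MRPL23, at chr11:1947278-1984522, lines the exit, and its level was 62.5, 56.5 and 53.4 CPM in the controls and 20.8, 20.1 and 19.4 CPM with decitabine. The groups were far apart, with a log2 fold change of -1.51 ± 0.11 (SE, adjusted p = 3.7e-08). MRPL45, which ties the ribosome to the inner membrane, fell by 1.34 ± 0.09 on the log2 scale (adjusted p = 1.4e-08).

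The stalk recruits translation factors, and its genes MRPL10, MRPL11 and MRPL12 were all downregulated. So were 84.6% of the 78 genes and 47.6% of well-expressed genes. MRPL11, at the base of the stalk, measured 86.8, 89.3 and 89.0 CPM in the controls and 35.2, 32.1 and 34.7 CPM with decitabine. No Dec library reached the controls, and the log2 fold change was -1.38 ± 0.10 (adjusted p = 4.2e-08). MRPL10 and MRPL12 changed by -1.02 ± 0.07 and -0.95 ± 0.08. Of the exonic bases of MRPL12, 69.5% also belong to another gene on the same strand, which limits its estimate.

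The largest fall among the 78 genes was that of MRPL1, at chr4:77862830-77952785, whose bacterial homologue forms the mobile stalk beside the exit site of transfer RNAs. It went from 24.8, 22.5 and 23.8 CPM to 8.29, 7.80 and 6.18 CPM, a log2 fold change of -1.67 ± 0.14 (adjusted p = 1.5e-07). MRPL58, at chr17:75012670-75021261, is a peptidyl-tRNA hydrolase built into the central protuberance, and it rescues stalled ribosomes. Its levels were 83.7, 81.2 and 79.3 CPM in the controls and 30.8, 26.4 and 29.2 CPM with decitabine. The log2 fold change was -1.50 ± 0.09 (adjusted p = 6.4e-09). MRPL19, which lies at the interface of the subunits, measured 83.1, 74.0 and 75 CPM and then 27.1, 27.2 and 28.5 CPM, with a log2 fold change of -1.49 ± 0.09 (adjusted p = 4.1e-09). In each of these genes every Dec library lay below every control. Of the exonic bases of MRPL19, 19.5% are shared on the same strand.

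Of the 7 genes of the central protuberance, where the large subunit meets the small one, 6 were downregulated (85.7%), with a median of -0.79. This share lay near the 84.6% of all 78 genes, beside 47.6% of well-expressed genes. MRPL46 and MRPL38 changed by -1.34 ± 0.10 and -1.25 ± 0.08, and MRPL18, at 77.3 to 81.2 CPM and 72.2 to 75 CPM, was not called (-0.12 ± 0.08, adjusted p = 0.19). The 3 genes around the peptidyl transferase centre, MRPL2, MRPL3 and MRPL16, were all downregulated, with a median of -0.68. In the small subunit, MRPS12 of the decoding centre was lower by a smaller amount, from 70.2 to 72.2 CPM down to 49.6 to 57.4 CPM (log2 fold change -0.43 ± 0.08, adjusted p = 0.00016).

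The 3 paralogues of bacterial S18 differed in level and in response. MRPS18B, of the small subunit, measured 110, 102 and 92.1 CPM in the controls and 48.2, 49.8 and 45.6 CPM with decitabine (log2 fold change -1.08 ± 0.08, adjusted p = 4.5e-08). MRPS18A, of the large subunit, changed by -0.53 ± 0.10 (adjusted p = 0.0002), with 50.9% of its exonic bases shared with a gene on the opposite strand. MRPS18C stayed at 11.2 to 12.1 CPM in the controls and 10.8 to 11.4 CPM with decitabine, so the groups overlapped (-0.07 ± 0.11, adjusted p = 0.61). MRPS18C shares 40.2% of its exonic bases with ABRAXAS1 on the opposite strand. MRPS30, the other large subunit protein with a small subunit symbol, fell by 0.67 ± 0.08. Whether the library kit kept the strand is not given in the sources used here.

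Among the genes that decitabine raised, MRPL33, at chr2:27771717-27988087, a short protein of the large subunit, had the largest change. Its level was 54.4, 54.3 and 53.1 CPM in the controls and 70.1, 79.3 and 79.3 CPM with decitabine, without overlap (log2 fold change 0.50 ± 0.07, adjusted p = 2e-05). This call held in every alternative analysis. Of its exonic bases, 21.1% are shared with BABAM2 on the same strand. MRPS21 rose from 116 to 119 CPM to 129 to 142 CPM (0.23 ± 0.08, adjusted p = 0.027) and MRPL55 from 60.4 to 65.5 CPM to 67.2 to 73.7 CPM (0.19 ± 0.08, adjusted p = 0.042). Both calls were lost when any 1 of the 3 controls was left out, without Dec 2 and with no filter. That of MRPS21 was also lost without Dec 1, and that of MRPL55 without Dec 3 or without Dec_Sam 2. MRPL36 was not called with decitabine, at 46 to 52.3 CPM against 43.8 to 44 CPM (0.19 ± 0.08, adjusted p = 0.059), but was called higher in 9 alternatives, DESeq2's test and its size factors among them.

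**Figure D3:**
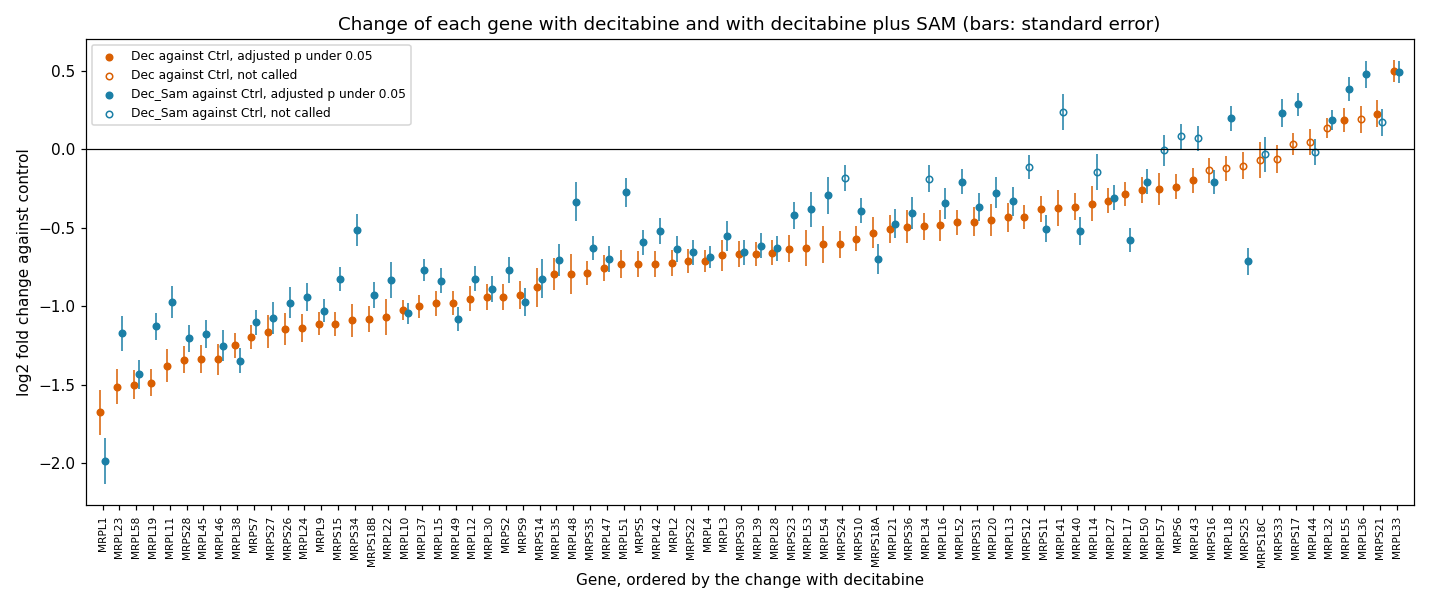
Log2 fold change against control of each of the 78 genes with decitabine (orange) and with the combination treatment (blue), with standard errors. Filled points passed an adjusted p of 0.05, open points did not, and genes are ordered by the change with decitabine, from MRPL1 at -1.67 to MRPL33 at 0.50.

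With the combination treatment, 60 genes were downregulated and 7 upregulated against the same controls, and 11 were not called. Without TMM factors, these numbers were 46 and 12. Among all genes tested 31.3% were called lower and 35.9% higher. The median log2 fold change was -0.57 for the 78 genes and 0.048 for all genes tested. Well-expressed protein-coding genes had a median of -0.13, with 44.2% lower and 25.8% higher. In the large subunit 40 genes were lower and 5 higher, with a median of -0.58, and in the small subunit 19 were lower and 2 higher, with a median of -0.55. The comparison uses the same control libraries as that of decitabine alone, so the 2 sets of values are not independent.

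MRPL1 again had the largest fall, to 7.45, 5.19 and 5.32 CPM (log2 fold change -1.98 ± 0.15, adjusted p = 3.7e-08). MRPL58 was at 34.4, 28.7 and 27.3 CPM (-1.43 ± 0.09, adjusted p = 9.5e-09). MRPL38 and MRPL46 of the central protuberance changed by -1.35 ± 0.08 and -1.25 ± 0.10, and MRPS28, a small subunit protein on chromosome 8, by -1.20 ± 0.08. All of these groups were apart from the controls. Parts of the exons of MRPL38 (41.1%) and MRPS28 (35.8%) belong to another gene on the same strand.

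The 7 upregulated genes were MRPL33, MRPL36, MRPL55, MRPS17, MRPS33, MRPL18 and MRPL32. MRPL36, a very short protein of the large subunit with a bacterial homologue, measured 44, 43.8 and 43.8 CPM in the controls and 67.7, 60.2 and 55.4 CPM with the combination treatment (0.48 ± 0.08, adjusted p = 0.00018). MRPL33 was at 75.7, 74.1 and 78.0 CPM (0.49 ± 0.07, adjusted p = 2.4e-05). MRPL55 was at 87.2, 82.7 and 74.1 CPM (0.39 ± 0.08, adjusted p = 0.00046). MRPS17, an RNA-binding protein of the small subunit, rose by 0.29 ± 0.07 and MRPS33 by 0.23 ± 0.09. None of these groups overlapped with the controls. Of the exonic bases of MRPS17, 25% are shared on the same strand. The number of upregulated genes was 4 without Ctrl 2, without Ctrl 3, without Dec_Sam 1 or without Dec_Sam 2. The calls of MRPS33 and MRPL18 were lost in each of these 4 settings and without Ctrl 1, and that of MRPL18 also without Dec 2 and with no filter.

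The direct comparison asked what SAM changed in the presence of decitabine. Relative to decitabine alone, 18 of the 78 genes were higher and 2 lower in Dec_Sam, and 58 were not called. Of all genes tested, 7.67% were called higher and 8.02% lower. Of well-expressed protein-coding genes, 11.5% were called higher and 8.99% lower, with a median log2 difference of 0.035. The median log2 difference was 0.13 for the 78 genes and 0.002 for all genes tested, with 0.12 for the large and 0.15 for the small subunit. The summed level was 4444, 4311 and 4354 CPM in the Dec libraries and 5212, 4757 and 4390 CPM in the Dec_Sam libraries. Dec_Sam 3 thus lay within the range of decitabine alone, whereas Dec_Sam 1 and 2 lay above it.

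The number of higher genes rested on single libraries. It was 4 without Dec 2, without Dec_Sam 1 or without Dec_Sam 2, 10 without Dec 1 and 28 without Dec_Sam 3. The summed share of counts of cytosolic ribosomal proteins varied in the same libraries, at 4.99%, 4.61% and 4.05% in Dec_Sam 1, 2 and 3, and the part of this in the result was not tested. MRPL41, MRPS34, MRPL51 and MRPS24 were higher and MRPS25 was lower under every alternative.

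MRPL41, at chr9:137551879-137552555, a mitochondria-specific protein of the large subunit, measured 76.3, 85.3 and 102 CPM with decitabine and 144, 138 and 121 CPM with the combination treatment. The groups did not overlap (log2 fold change 0.61 ± 0.12, adjusted p = 0.0055). In the controls its level was 129, 113 and 100 CPM, and the combination treatment did not differ from them at the threshold (0.24 ± 0.11, adjusted p = 0.082). MRPS34, a small subunit protein needed for the stability of the 12S RNA, went from 65.6, 65.2 and 71.5 CPM to 113, 107 and 81.4 CPM (0.58 ± 0.10, adjusted p = 0.0035). It remained below the controls at 149, 145 and 136 CPM. MRPS34 shares 31.2% of its exonic bases with EME2 on the opposite strand.

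MRPL51 was at 85.5, 83.5 and 86.7 CPM with decitabine and 136, 114 and 102 CPM with the combination treatment (0.46 ± 0.09, adjusted p = 0.0056). MRPS24, at the entry of the messenger RNA, went from 64.3, 69.4 and 77.4 CPM to 100, 96.1 and 86.1 CPM (0.42 ± 0.08, adjusted p = 0.0058). MRPL51 shares 27.6% of its exonic bases with NCAPD2 on the opposite strand, and MRPS24 shares 23.2% with URGCP-MRPS24 on the same strand. MRPL11 was at 52.2, 45.7 and 37.0 CPM, above decitabine alone by 0.40 ± 0.10 (adjusted p = 0.018) but below the controls by a log2 fold change of -0.97 ± 0.10. MRPS12 of the decoding centre was higher by 0.32 ± 0.08, and its range of 62.1 to 70.6 CPM reached that of the controls.

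MRPS25, at chr3:15009611-15065339, a mitochondria-specific protein of the small subunit, showed the opposite course. Its level was 95.7, 99.1 and 104 CPM in the controls, 104, 88.5 and 85.3 CPM with decitabine and 61.0, 55.8 and 65.1 CPM with the combination treatment. Decitabine alone overlapped with the controls (-0.10 ± 0.08, adjusted p = 0.29), and the combination treatment lay below both groups. Against decitabine the log2 fold change was -0.61 ± 0.09 (adjusted p = 0.00086). Of its exonic bases, 39.1% are shared on the opposite strand and 11.3% on the same strand, NR2C2 among the overlapping genes. MRPL17 of the exit tunnel was also lower, at 75.7, 74.0 and 77.5 CPM against 62.9, 62.8 and 60.0 CPM (-0.29 ± 0.08, adjusted p = 0.022), a call that was lost without Dec 1, without Dec 2 or without Dec_Sam 2.

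**Figure D4:**
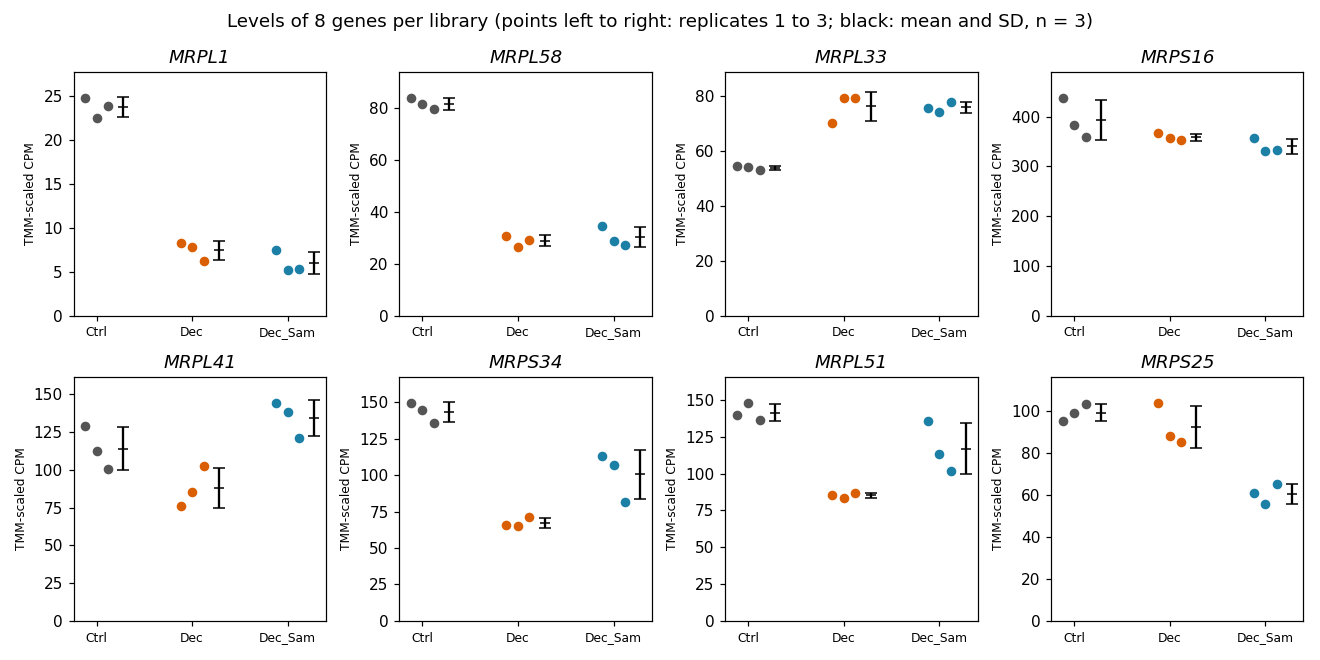
TMM-scaled CPM of 8 genes in each library. Points are replicates 1 to 3 from left to right, and black marks are the mean and SD (n = 3). MRPL1 and MRPL58 are low in both treatments, MRPL33 is high in both, MRPL41, MRPS34 and MRPL51 are higher in Dec_Sam than in Dec, and MRPS25 is lower.

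The length of the transcript moved with the difference between the treatments. Among well-expressed protein-coding genes, the median log2 difference was 0.21 for canonical transcripts up to 1000 bases, 0.091 from 1000 to 2000, 0.041 from 2000 to 4000 and -0.012 above 4000. The 78 genes had medians of 0.26 (26 genes), 0.089 (34 genes), 0.070 (12 genes) and 0.21 (6 genes) in these classes. Of the 18 higher genes, 11 were in the shortest class, in which 28.2% of all well-expressed genes were called higher. The part of length in the result was not tested. In the comparison of decitabine with the controls, the medians were -0.28, -0.23, -0.17 and -0.14 for all well-expressed genes and -0.47, -0.74, -0.65 and -0.68 for the 78 genes, so the ribosomal genes lay lower in every class.

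**Figure D5:**
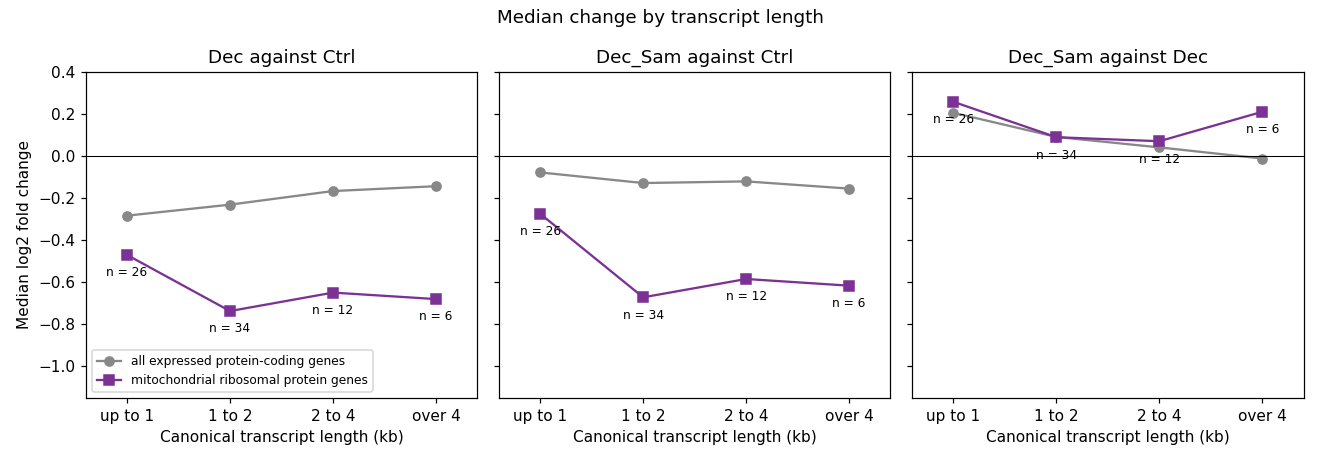
Median log2 fold change by length of the canonical transcript, for all well-expressed protein-coding genes (grey) and for the mitochondrial ribosomal protein genes (purple, with the number of genes in each class), in the 3 comparisons. Against the controls the purple points lie below the grey ones in each class, and between the treatments they are close to them in the first 3 classes.

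Both ribosomal RNAs of the mitochondrial ribosome went in the other direction. MT-RNR1, the 12S RNA of the small subunit, was at 514, 557 and 578 CPM in the controls, 1529, 1532 and 1348 CPM with decitabine and 902, 1103 and 1229 CPM with the combination treatment. The groups were apart in all 3 comparisons, with log2 fold changes of 1.42 ± 0.10 and 0.97 ± 0.10 against the controls and -0.45 ± 0.10 between the treatments (adjusted p = 0.011). MT-RNR2, the 16S RNA of the large subunit, changed by 0.35 ± 0.14 with decitabine, with overlapping groups (adjusted p = 0.034), and by 0.72 ± 0.14 with the combination treatment (adjusted p = 0.00046). Between the treatments its difference was 0.36 ± 0.14, of the opposite sign to that of MT-RNR1, with overlapping groups and no call (adjusted p = 0.088). How ribosomal RNA was removed from the libraries is not given in the sources used here, and its efficiency was not tested.

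Other parts of the translation machinery of mitochondria were also mostly lower. The 5 further ribosomal proteins without an MRP symbol were DAP3, PTCD3, CHCHD1, AURKAIP1 and GADD45GIP1. Decitabine downregulated all of them, with a median of -0.37, beside 47.6% of well-expressed genes and 32.5% of all genes tested. With the combination treatment 3 were lower (60%, beside 44.2% and 31.3%), and AURKAIP1 and GADD45GIP1 were not called. AURKAIP1, CHCHD1 and GADD45GIP1 were higher in Dec_Sam than in Dec (60%, beside 11.5% and 7.67%). Of 13 translation factors, decitabine lowered 9 (69.2%, beside 47.6% of well-expressed genes and 32.5% of all genes tested) and raised none. MRRF, which recycles ribosomes after termination, fell by 1.25 ± 0.10. With the combination treatment 9 were lower (69.2%, beside 44.2% and 31.3%), and GFM1, an elongation factor, was higher at 166 to 193 CPM against 122 to 131 CPM in the controls (0.50 ± 0.08, adjusted p = 5.1e-05). MTRF1, a release factor, was also higher (0.30 ± 0.13, adjusted p = 0.046). Between the treatments MTFMT, GFM1 and TUFM were higher (23.1%, beside 11.5% of well-expressed genes and 7.67% of all genes tested) and none lower.

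Of 24 assembly factors, decitabine lowered 17 (70.8%, beside the same shares) and raised 2, MPV17L2 (0.48 ± 0.08) and NGRN (0.18 ± 0.07). TFB1M, which methylates the 12S RNA with SAM as the methyl donor, was at 29.4, 26.4 and 26.7 CPM in the controls, 13.8, 12 and 10.3 CPM with decitabine and 8.08, 7.76 and 7.28 CPM with the combination treatment. All 3 groups were apart, and the combination treatment differed from decitabine by -0.64 ± 0.12 (adjusted p = 0.004). FASTKD2 and ERAL1, which bind the 16S and the 12S RNA, changed by -1.17 ± 0.09 and -1.12 ± 0.09 with decitabine. With the combination treatment 16 factors were lower (66.7%, beside 44.2% of well-expressed genes and 31.3% of all genes tested) and 2 higher. MALSU1, a factor of the large subunit, was the 1 gene that was higher between the treatments (0.52 ± 0.10, adjusted p = 0.0044). This was 4.17% of the 24 factors, beside 11.5% of well-expressed genes and 7.67% of all genes tested.

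The same direction was seen in 2 larger groups. Of 83 cytosolic ribosomal protein genes tested, 79 (95.2%) were lower and 1 higher with decitabine (median -0.69). With the combination treatment 66 (79.5%) were lower and 2 higher (-0.51), and between the treatments 14 (16.9%) were higher and none lower (0.21). Of 77 nuclear-encoded respiratory chain and ATP synthase genes tested, 64 (83.1%) were lower and 1 higher with decitabine (-0.56). With the combination treatment 49 (63.6%) were lower and 7 higher (-0.33), and between the treatments 18 (23.4%) were higher and 1 lower (0.20). Of well-expressed protein-coding genes, 47.6% were lower with decitabine, 44.2% with the combination treatment, and 11.5% were higher between the treatments. Of all genes tested, these shares were 32.5%, 31.3% and 7.67%.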

How the data were processed

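RNA-seq was available for 9 PC-3 libraries, grouped by their treatment labels. The authors trimmed reads with Trim Galore 0.6.4 and counted them with kallisto against GRCh38.p13. The files deposited for each library hold estimated counts by Ensembl gene without normalization, and these were rounded. The deposited log2 CPM values were not used. Of 60617 identifiers, 60357 matched GENCODE release 44. Testing used R 4.3.3 and edgeR 4.0.16 on the 18532 genes kept by filterByExpr, with TMM scaling, the robust quasi-likelihood test, 1 mean per group over all 9 libraries and Benjamini-Hochberg adjustment over all genes tested, at a threshold of 0.05. The study used voom and limma, kept as an alternative with DESeq2 1.42.0, other scalings and filters, and leaving out libraries. The common dispersion was 0.00977. No library was a copy of another of its group (chi-square of 5.86 to 23.5 per degree of freedom). The tests were tested on simulated data in which few genes changed, which does not cover changes as broad as those seen here. Genes and lists were chosen with earlier results of these data known. Named genes were the 5 largest called changes in each direction of each comparison whose groups did not overlap, the S18 paralogues and MRPS30, the 3 highest and 3 lowest per kilobase, the role lists, and the largest called changes of the other translation lists. MRPS16, TFB1M and MRPS11 were added after their values were seen. Subunits, roles and lists were taken from textbook knowledge and are described by counts and medians, with no test of a list. Of the 78 genes, 17 share over 5% of exonic bases with another gene on the same strand and 24 with one on the opposite strand. MRPS31 has 4 pseudogenes with 36.1% as many counts as the gene itself, so its estimate is uncertain.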

Additional observations from a re-analysis of the deposited data

How the results depend on the processing

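No call on the 78 genes turned to the opposite direction in any alternative. With decitabine, the number upregulated was 5 with DESeq2's size factors, with DESeq2's test, with a mean of at least 10 counts or with only the libraries compared, 7 with library size alone and 1 with no filter. The small subunit median of -0.67 became -0.65 with DESeq2's size factors or test, -0.71 with no filter, -0.64 with only the libraries compared and -0.63 with subunits by symbol. Library size alone moved the median of all genes to 0.28 (decitabine) and 0.27 (combination treatment). It gave medians of -0.42 for both subunits with decitabine, and -0.36 (large) and -0.33 (small) with 12 upregulated genes for the combination treatment. Between the treatments 10 genes were higher with only the libraries compared. The log2 ratio of the share of counts, -0.38 (decitabine) and -0.27 (combination treatment), was -0.62 and -0.49 over TMM effective library sizes. The ratio of large to small subunit counts, 1.65, 1.53 and 1.58 in Ctrl, Dec and Dec_Sam, was 1.51, 1.40 and 1.46 by symbol and 1.95, 1.93 and 1.94 without MRPS16. The cause of these shifts was not tested. Leaving out 1 library at a time, 1 to 4 genes were upregulated and 63 to 67 downregulated with decitabine (medians -0.72 to -0.66 large, -0.71 to -0.66 small), 4 to 9 and 53 to 62 with the combination treatment (-0.66 to -0.56 large, -0.65 to -0.48 small), and 4 to 28 higher and 1 to 2 lower between the treatments (0.040 to 0.19 large, 0.069 to 0.20 small). Same-numbered Dec and Dec_Sam libraries deviated together with r = 0.233, 0.0359 and 0.229, and differently numbered ones with r from -0.22 to 0.0141. The other same-numbered pairs had r from -0.0165 to 0.0694, so the numbers were not taken to pair the samples. Whether the Dec and Dec_Sam libraries shared an order or batch was not tested. With a replicate block, 4 genes were upregulated and 66 downregulated with decitabine, 7 and 61 with the combination treatment, and 20 were higher and 2 lower between the treatments. No member had under 100 counts in a library, so that limit changed nothing.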

Other observations

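MRPL46 and MRPS11 lie head to head on chromosome 15, with 62 bases between their annotated starts. MRPL46 was at 26, 27.3 and 25.5 CPM in the controls and 11.3, 9.44 and 10.5 CPM with decitabine, and MRPS11 at 50.0, 52.8 and 47.5 CPM and then 39.0, 37.9 and 38.6 CPM. The log2 fold changes with decitabine were -1.34 ± 0.10 and -0.38 ± 0.08. MRPL46 shares 11.3% of its exonic bases with another gene on the same strand, and the difference between the 2 genes was not tested.

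Of 9 regulators of mitochondrial genes, 4 were lower (44.4%) and none higher with decitabine, close to the 47.6% lower among well-expressed genes. MYC, which drives ribosome production, was at 350, 377 and 357 CPM in the controls, 210, 201 and 191 CPM with decitabine and 235, 235 and 188 CPM with the combination treatment, with log2 fold changes of -0.85 ± 0.09 and -0.72 ± 0.09 against the controls. NRF1 fell by 0.36 ± 0.09 with decitabine. YY1, at 160 to 175 CPM in the controls and 154 to 166 CPM with decitabine, and GABPA were not called. With the combination treatment 3 were lower (33.3%, beside 44.2% of well-expressed genes and 31.3% of all genes tested) and 1 higher. Between the treatments ESRRA, a nuclear receptor of mitochondrial genes, was higher (0.30 ± 0.09, adjusted p = 0.036, edgeR's quasi-likelihood test).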
